A study of Mus musculus with 12 samples.

Results

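Complement, coagulation and fibrinolysis are plasma protease systems that act at sites of injury, and 33 of their genes were followed here in the inflamed mouse colon. The 33 members were taken by gene symbol: 19 genes of complement and 14 of clotting and plasminogen activation, out of 21899 genes in the deposited table. All 33 were in the table and 32 passed the filter on low counts. The member that did not pass was Cfi, the protease that inactivates deposited C3b and C4b, which had 0 to 9 reads per library.

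RNA came from the colons of 12 mice, all of which received 2.5% dextran sulfate sodium (DSS) for 7 days, an agent that damages the epithelium and sets off colitis. In 6 mice (genotype CKO) the gene Pck1, which encodes the cytosolic phosphoenolpyruvate carboxykinase, had been knocked out specifically in intestinal epithelial cells, and 6 littermates (genotype WT) were the controls. The sources used here name neither the promoter behind the deletion nor the age or strain of the mice, and mice without DSS are not analysed here. RNA was taken from colon tissue and not from sorted cells, so fewer cells of a type and less RNA per cell cannot be told apart in any value below. Library totals were 15348192 to 18211663 counts in the knockout and 15881625 to 19138507 in the control. In CPM, the count scaled to a common library total, Pck1 itself was at 2.28 to 7.32 in the knockout libraries and at 34.5 to 84.7 in the controls.

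In the classical complement pathway, C1q binds antibodies or damaged surfaces and its partner proteases, encoded by C1ra and C1s1, cut C4 and C2. C3 is the step where all routes meet, the alternative route through Cfb and Cfp amplifies it, and C6 and C7 help build the membrane pore. In coagulation, tissue factor (F3) starts the cascade that leads through F10 to thrombin, which thrombomodulin (Thbd), the protein C receptor (Procr), protein S (Pros1) and the tissue factor pathway inhibitors hold back. Plasminogen activators (Plau and Plat) then turn on the enzyme that dissolves fibrin, and Plaur is the cell surface receptor that holds the Plau protein. Most circulating complement and clotting proteins come from the liver, but macrophages, fibroblasts, endothelium and epithelium make many of them locally.

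Of the 32 tested members 30 had a log2 fold change (knockout minus control) above 0, and no member passed the main threshold. Of all 14393 tested genes 6485 were above 0. The median of the members was 0.68, while the median of all tested genes was -0.03. By edgeR's quasi-likelihood test, with p adjusted by Benjamini-Hochberg over all tested genes, 0 members had an adjusted p under 0.05, which 0.0556% of all tested genes had (0.0278% higher and 0.0278% lower). At an adjusted p under 0.1, 18 members were higher and 0 lower, against 6.59% and 3.02% of all tested genes. That count fell to 0 when knockout replicate 1 or control replicate 1, 2, 3 or 5 was left out, to 4 without knockout replicate 2 and to 5 without knockout replicate 3, and it was 0 with the replicate number as a block. The 0.1 level therefore describes the full set of 12 libraries wherever it is used below. At an unadjusted p under 0.05 there were 25 higher and 0 lower members, against 13.1% and 9.48%. The lowest adjusted p of any member was 0.0522, for Procr. All single-gene adjusted p values below come from this edgeR fit.

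How many members passed an adjusted p of 0.05 depended on the tool. DESeq2 gave 21 higher members, where 7.61% of all tested genes were higher and 2.95% lower. The edgeR likelihood ratio test gave 17 (5.96% and 2.10% of all genes), limma voom 0 (0.208% and 0.132%) and voom with sample quality weights 22 (10.8% and 9.30%). Scaling by library size alone gave 5 members (1.60% and 0.313%), limma on log2(TPM + 1) gave 8 (2.47% and 0.333%) and limma on log2(TPM + 0.1) also 8 (2.54% and 0.333%). The count of lower members was 0 in each of these fits. In the authors' deposited table, whose test is not named, 18 members were higher and 0 lower at an FDR under 0.05, against 4.65% and 1.70% of its genes.

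The count also depended on 3 mice. With knockout replicate 4 left out, edgeR called 14 members higher, against 6.02% of all genes higher and 2.78% lower. Dropping control replicate 4 gave 16 members (5.03% and 1.93% of all genes), and dropping control replicate 6 gave 7 (1.88% and 0.699%). The other single libraries, left out in turn, gave 0. Without knockout replicate 4 and control replicate 4 together it called 20, of which 12 were complement and 8 clotting or fibrinolysis genes, against 8.40% of all genes higher and 4.88% lower. These 2 libraries were chosen with their values known, so this count is conditioned on the outcome.

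**Figure D1:**
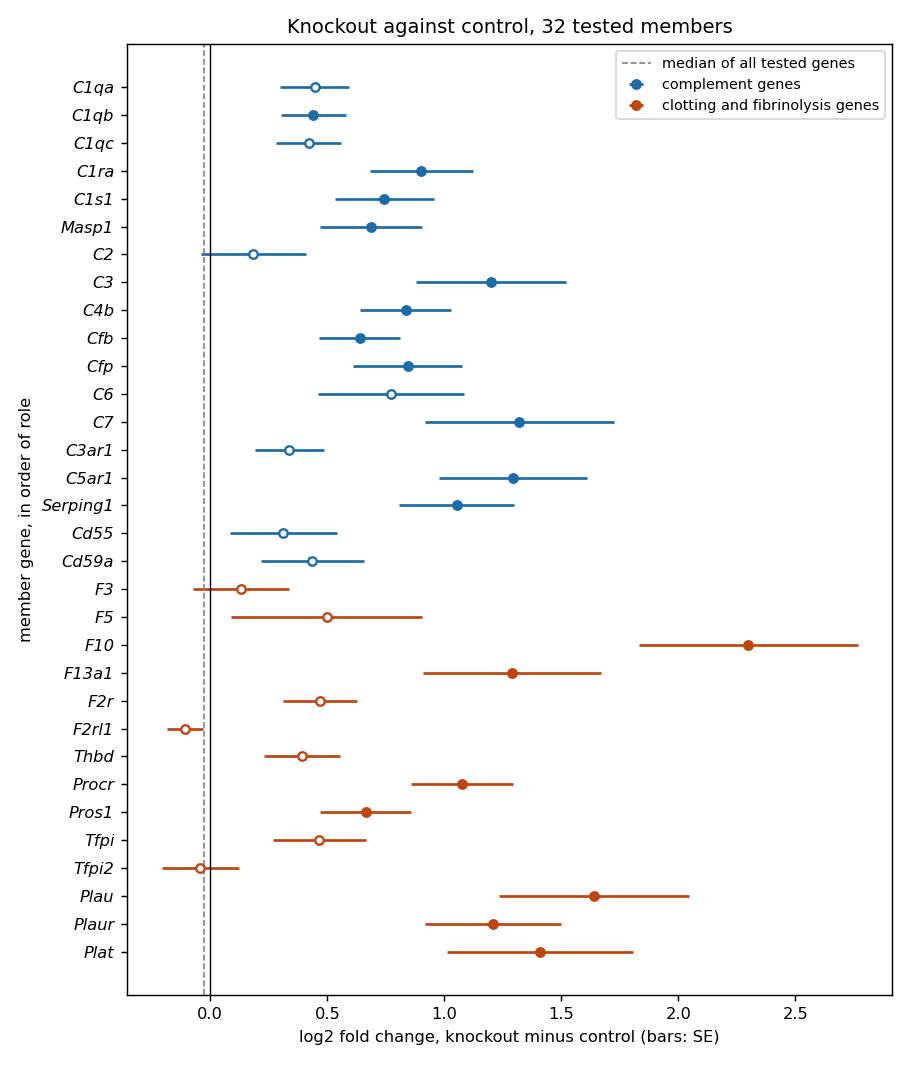
Log2 fold change (knockout minus control, x axis) of the 32 tested members in order of role (y axis), with bars of 1 SE from edgeR. Points with a white centre have an adjusted p of 0.1 or more, the dashed line is the median of all tested genes, and only F2rl1 and Tfpi2 lie below 0.

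For the genes that could be matched, the sequence before the annotated gene start was read from RefSeq (GRCm38.p6). Windows of 250 bases were found for 22 of the 33 members (27 windows, as some genes have several starts). The bases that follow the window were found in a GENCODE transcript of the same gene for 22 of the 27 windows. Not among them were the windows of Plaur, C7, C1qb and F5 and a Tfpi2 window without AP-1 letters. All 27 windows were searched on both strands for the letters of AP-1 (TGANTCA), CRE (TGACGTCA), GAS (TTCNNNGAA), the paired interferon element, the E-box CACGTG and the TATA box TATAAA. AP-1 letters, the motif of the Fos and Jun factors, were in 6 of the 22 genes (C3ar1, F2r, F3, Plaur, Procr and Tfpi2). By window they were in 6 of the 27 member windows and in 6.75% of all 32851 windows. GAS letters were in C7 and Pros1 (7.02% of all windows), the paired interferon element in Cd59a (2.98%), and the TATA box in C3ar1, C7 and Tfpi (12.4%). CRE letters (1.55% of all windows) and the E-box (6.02%) were in 0 of the 22. The windows of 4 genes with AP-1 letters are shown because they include Procr, the member with the smallest p, and F3, whose groups overlapped widely: Procr (chr2:155750967-155751216, plus strand), Plaur (chr7:24462233-24462482, plus strand), F3 (chr3:121723287-121723536, plus strand) and C3ar1 (chr6:122856158-122856407, minus strand). Capitals mark the matched letters, which in C3ar1 are the TATA box and then AP-1.
Procr: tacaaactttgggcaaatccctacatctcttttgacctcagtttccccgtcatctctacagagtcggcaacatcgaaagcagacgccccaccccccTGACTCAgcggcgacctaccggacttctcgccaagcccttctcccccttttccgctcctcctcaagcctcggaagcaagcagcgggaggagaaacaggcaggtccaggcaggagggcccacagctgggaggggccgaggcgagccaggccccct
Plaur: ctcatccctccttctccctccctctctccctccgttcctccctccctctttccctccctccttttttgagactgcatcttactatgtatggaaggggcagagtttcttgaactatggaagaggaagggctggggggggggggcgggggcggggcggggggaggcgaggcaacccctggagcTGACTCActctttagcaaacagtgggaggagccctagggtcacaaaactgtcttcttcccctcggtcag
F3: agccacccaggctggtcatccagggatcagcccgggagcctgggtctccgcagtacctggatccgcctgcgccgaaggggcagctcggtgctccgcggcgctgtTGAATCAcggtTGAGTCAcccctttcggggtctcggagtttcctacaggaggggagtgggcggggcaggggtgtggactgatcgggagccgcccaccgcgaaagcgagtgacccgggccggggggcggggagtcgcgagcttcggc
C3ar1: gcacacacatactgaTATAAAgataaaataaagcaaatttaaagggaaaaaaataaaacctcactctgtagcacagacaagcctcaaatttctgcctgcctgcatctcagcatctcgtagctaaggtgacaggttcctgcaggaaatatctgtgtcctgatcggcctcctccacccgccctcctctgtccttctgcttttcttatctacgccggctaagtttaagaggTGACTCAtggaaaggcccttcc
Counted from the RefSeq start, the AP-1 letters begin 154 bases before Procr, 69 before Plaur, 146 and 135 before F3, and 22 before C3ar1. A match of letters describes the window and does not show a bound site. Of the 6 genes with AP-1 letters, Plaur and Procr were higher at an adjusted p under 0.1. F3, with 2 matches, was not, and neither were C3ar1, F2r and Tfpi2, as the values below show.

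The 3 chains of C1q, the recognition molecule of the classical pathway, had near-equal differences, and C1qb passed the 0.1 level. C1qb (ENSMUSG00000036905) ran from 126.2 through a median of 140.0 to 226 CPM in the knockout and from 94.0 through 113 to 125.9 CPM in the control. It was the single member whose groups did not overlap, a pattern that 0.882% of tested genes showed in the higher direction and 0.639% in the lower. C1qb was 0.44 ± 0.14 higher on the log2 scale (SE), with an edgeR adjusted p of 0.0867 and an exact two-sided permutation p of 0.00216, the smallest that the arrangements of 12 libraries can give. C1qa (0.45 ± 0.15) and C1qc (0.42 ± 0.14) had nearly the same difference, with adjusted p values of 0.102 and 0.1001, each just outside the 0.1 level. In the knockout C1qa ran from 122 through 134 to 215 CPM, and in the control from 82.1 through 110 to 129 CPM. Only knockout replicate 4 was below the highest control for this gene.

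The proportions of the chains were steady across mice. Of the summed length-scaled level (TPM) of the 3 genes, C1qa made up 35.5 ± 0.59% in the knockout and 35.2 ± 1.15% in the control, C1qb 35.2 ± 1.07% and 35.3 ± 1.46%, and C1qc 29.3 ± 1.07% and 29.4 ± 1.25% (SD, n = 6 each). The share of C1qc stayed between 27.8% and 31.6% over the 12 libraries, while C1qc itself ran from 80.9 to 192 CPM.

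The 3 proteases of the first step were each higher at an adjusted p under 0.1. C1ra (ENSMUSG00000055172), which cuts and activates its partner C1s, ran from 105 through 162 to 259 CPM in the knockout and from 61.7 through 80.6 to 136 CPM in the control. Of the 6 knockout libraries 5 lay above all controls, and the difference was 0.90 ± 0.22 on the log2 scale (SE, edgeR adjusted p = 0.0570, exact permutation p = 0.00649). C1s1, which cuts C4 and C2, ran from 160.0 through 257 to 364 CPM against 107 through 132 to 214 CPM, and 4 knockout libraries lay above all controls (0.74 ± 0.21, adjusted p = 0.0704). Masp1, a protease of the lectin route, was at 9.17 to 22.7 CPM (median 12.1) against 6.68 to 10.8 CPM (median 7.57), a log2 difference of 0.69 ± 0.22 (adjusted p = 0.0907). C1ra and C1s1 have close copies in the mouse, C1rb and C1s2, whose counts were too low to test.

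C3, the centre of the system, was the most abundant member. It ran from 923 through 1341 to 3039 CPM in the knockout and from 439 through 520.4 to 1140 CPM in the control, with 4 knockout libraries above all controls. Its log2 difference was 1.20 ± 0.32 (SE, edgeR adjusted p = 0.0636, exact permutation p = 0.00866). Knockout replicate 2 held the highest value by a wide gap, the next being 1568 CPM.

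Among the other proteins of this step, C4b had the smallest p. C4b (ENSMUSG00000073418), which with C2 forms the C3 convertase, ran from 216 through 299 to 431 CPM against 125 through 149 to 244 CPM, a difference of 0.84 ± 0.19 (adjusted p = 0.0541). C4b has a near-identical copy, C4a, which is not analysed here, so how reads were split between them is uncertain. Cfb, the alternative route's protease, was at 181 through 296 to 396 CPM against 145 through 195 to 227 CPM (0.64 ± 0.17, adjusted p = 0.0638). Cfp, properdin, which steadies the alternative convertase and is made by leukocytes, was at 30.6 through 34.5 to 67.9 CPM against 16.4 through 19.3 to 34.2 CPM (0.84 ± 0.23, adjusted p = 0.0657). Above all controls lay 5 knockout libraries for C4b, 5 for Cfb and 3 for Cfp. For C2 the groups lay across each other, at 21.7 ± 7.75 against 19.1 ± 4.32 CPM (SD, n = 6), with a log2 difference of 0.18 ± 0.22 and an interval (95%) of -0.26 to 0.62.

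Both measured components of the membrane pore were scarce. C7 was at 2.72 through 6.14 to 10.7 CPM in the knockout and at 1.096 through 2.53 to 4.55 CPM in the control, a log2 difference of 1.32 ± 0.40 (SE, adjusted p = 0.0820). C6 was at 4.65 through 6.44 to 10.2 against 1.64 through 3.22 to 6.76 CPM (0.77 ± 0.31, adjusted p = 0.164). The groups overlapped for both genes, with 4 knockout libraries above all controls for C7 and 2 for C6.

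Of the receptors for the cleaved fragments C3a and C5a, that for C5a passed the 0.1 level. C5ar1 (ENSMUSG00000049130), the C5a receptor of neutrophils and macrophages, ran from 18.04 through 24.5 to 51.4 CPM in the knockout and from 7.49 through 8.75 to 20.9 CPM in the control. Control replicate 4 was the only control above any knockout library, and the log2 difference was 1.29 ± 0.32 (SE, adjusted p = 0.0570, exact permutation p = 0.00649). C3ar1, the C3a receptor, was at 21.4 through 24.5 to 28.3 CPM against 12.7 through 20.5 to 25.4 CPM, a difference of 0.34 ± 0.15 (adjusted p = 0.196). The receptors were not tested against each other.

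Of the regulators that restrain complement, 1 of the 3 tested was higher at the 0.1 level. Serping1 (ENSMUSG00000023224), the C1 inhibitor, which blocks the C1 proteases and also the contact system of clotting, ran from 216 through 335 to 589 CPM in the knockout and from 115 through 146 to 264 CPM in the control. Of the knockout libraries 5 lay above all controls, and the log2 difference was 1.05 ± 0.25 (SE, adjusted p = 0.0542). The membrane shields Cd55, which breaks up C3 convertases, and Cd59a, which blocks the pore, stood at 0.31 ± 0.23 and 0.44 ± 0.22 on the log2 scale (adjusted p = 0.453 and 0.261). Cd55 was at 99.3 ± 30.9 against 79.9 ± 23.3 CPM and Cd59a at 19.4 ± 5.67 against 14.3 ± 4.33 CPM (SD, n = 6). Cfi was at 0.178 ± 0.0952 against 0.274 ± 0.231 CPM, too few reads for a test.

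**Figure D2:**
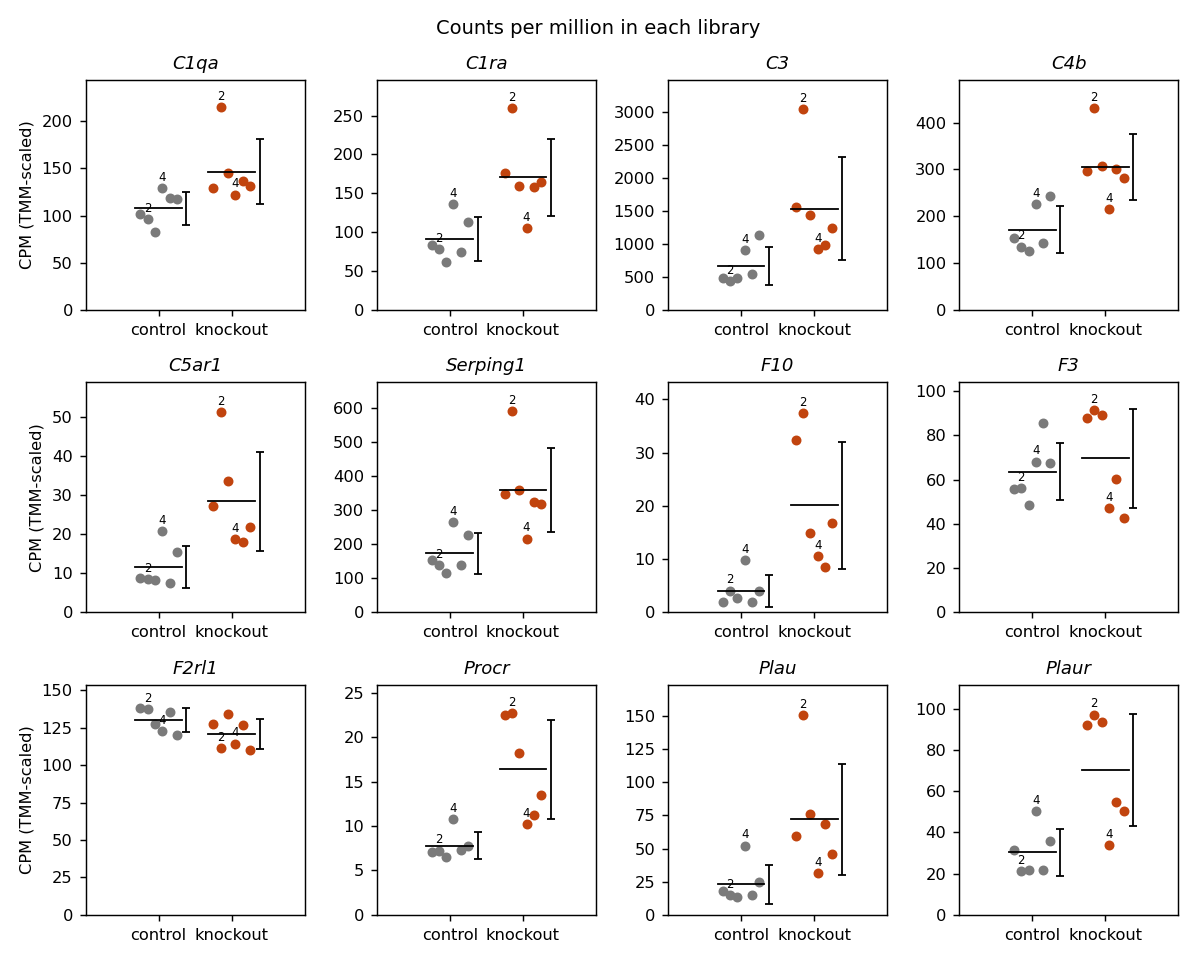
CPM (y axis, from 0) of 12 members in each of the 6 control and 6 knockout libraries, with the mean as a line and 1 SD as a bar. Replicates 2 and 4 are numbered: knockout replicate 2 is the highest library for C3, at 3039 CPM, and control replicate 4 lies above knockout replicate 4 for most genes shown.

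The clotting factors did not share one pattern. F10 (ENSMUSG00000031444), the factor that turns prothrombin into thrombin, had the largest difference of all members. It ran from 8.51 through 15.8 to 37.5 CPM in the knockout and from 1.95 through 3.29 to 9.90 CPM in the control. Only knockout replicate 5 was below control replicate 4, and every other knockout library lay above all controls. The ratio of the means was 4.92 and the log2 difference 2.30 ± 0.47 (SE, edgeR adjusted p = 0.0531, exact permutation p = 0.00433). F13a1, the subunit of the fibrin cross-linking enzyme that macrophages and platelets carry, was at 33.2 through 65.4 to 143 CPM against 16.7 through 23.6 to 54.8 CPM (1.29 ± 0.38, adjusted p = 0.0750).

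Tissue factor, the initiator, gave no difference beyond its spread. F3 ran from 42.8 through 73.9 to 91.4 CPM in the knockout and from 48.7 through 61.7 to 85.3 CPM in the control, with a log2 difference of 0.13 ± 0.21 (adjusted p = 0.755) and an interval (95%) of -0.27 to 0.53. Knockout replicates 1, 2 and 3 were above all controls, and knockout replicates 4 and 6 below all of them. F5, the cofactor of F10, was scarce, at 4.17 ± 1.70 against 2.94 ± 1.99 CPM (SD, n = 6; 0.50 ± 0.41, adjusted p = 0.515).

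Neither receptor that clotting proteases cut on cells passed the 0.1 level. F2r, the thrombin receptor, was at 41.9 through 57.0 to 65.0 CPM in the knockout against 29.3 through 40.2 to 52.8 CPM, a log2 difference of 0.47 ± 0.16 (adjusted p = 0.103). F2rl1, the receptor cut by trypsin-like proteases and abundant in colon epithelium, was at 110.2 through 121 to 134 CPM against 120.1 through 131 to 138 CPM (-0.11 ± 0.08, adjusted p = 0.425). It had the narrowest interval of the members, from -0.26 to 0.04 on the log2 scale.

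Of the 5 natural anticoagulants 2 were higher at the 0.1 level. Procr (ENSMUSG00000027611), an endothelial receptor that helps activate protein C, ran from 10.2 through 15.9 to 22.7 CPM in the knockout and from 6.54 through 7.27 to 10.8 CPM in the control. Knockout replicate 4 alone was below the highest control, and the log2 difference was 1.07 ± 0.22 (SE, adjusted p = 0.0522, exact permutation p = 0.00433). Pros1, the protein C cofactor that also bridges dying cells to phagocyte receptors, was at 40.8 through 57.6 to 67.3 CPM against 25.6 through 31.1 to 52.5 CPM (0.66 ± 0.19, adjusted p = 0.0749), with 5 knockout libraries above all controls. Thbd and Tfpi stood at 0.39 ± 0.16 and 0.47 ± 0.20 (adjusted p = 0.171 and 0.187), and Tfpi2, a relative of Tfpi, at -0.04 ± 0.16 (adjusted p = 0.911). In CPM, Thbd was at 44.4 ± 7.76 against 33.9 ± 7.83, Tfpi at 17.0 ± 3.74 against 12.3 ± 3.72 and Tfpi2 at 4.35 ± 0.753 against 4.49 ± 0.711 (SD, n = 6).

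All 3 plasminogen activation genes were higher at an adjusted p under 0.1. Plau (ENSMUSG00000021822), urokinase, ran from 31.4 through 63.8 to 150.5 CPM in the knockout and from 13.6 through 16.5 to 52.2 CPM in the control. Its log2 difference was 1.64 ± 0.41 (SE, adjusted p = 0.0580, exact permutation p = 0.00649), and control replicate 4 was the only control above any knockout library. Plaur (ENSMUSG00000046223), its receptor, was at 33.8 through 73.5 to 97.2 CPM against 21.3 through 26.8 to 50.2 CPM (1.21 ± 0.29, adjusted p = 0.0565). Plat, tissue-type activator, was at 21.2 through 38.6 to 116 CPM against 12.8 through 17.4 to 31.0 CPM (1.41 ± 0.40, adjusted p = 0.0694). Above all controls lay 5 knockout libraries for Plaur and 4 for Plat. The highest Plat library was knockout replicate 3, whereas Plau was highest in knockout replicate 2.

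Measured per length, complement transcripts were the more abundant class. Mean TPM over the 12 libraries was highest for C3 (426 TPM), Serping1 (281), C1qa (227), C1qb (226), C1qc (188), Cfb (172) and C1s1 (148). The highest clotting or fibrinolysis member was F2rl1 at 84.4 TPM, followed by F3 (65.6) and Plaur (62.3). Next to each other in the control, Serping1 (178 ± 63.8 TPM, SD, n = 6), C1qa (187 ± 31.1) and C1qb (186 ± 21.0) did not differ beyond their spread. C3, at 248 ± 98.9 TPM, overlapped with them within 1 SD. In the knockout C3 was at 605 ± 304 TPM and Serping1 at 385 ± 142 TPM. The lowest members were Cfi (0.258 TPM), F5 (0.889), C7 (3.22) and C6 (3.53).

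**Figure D3:**
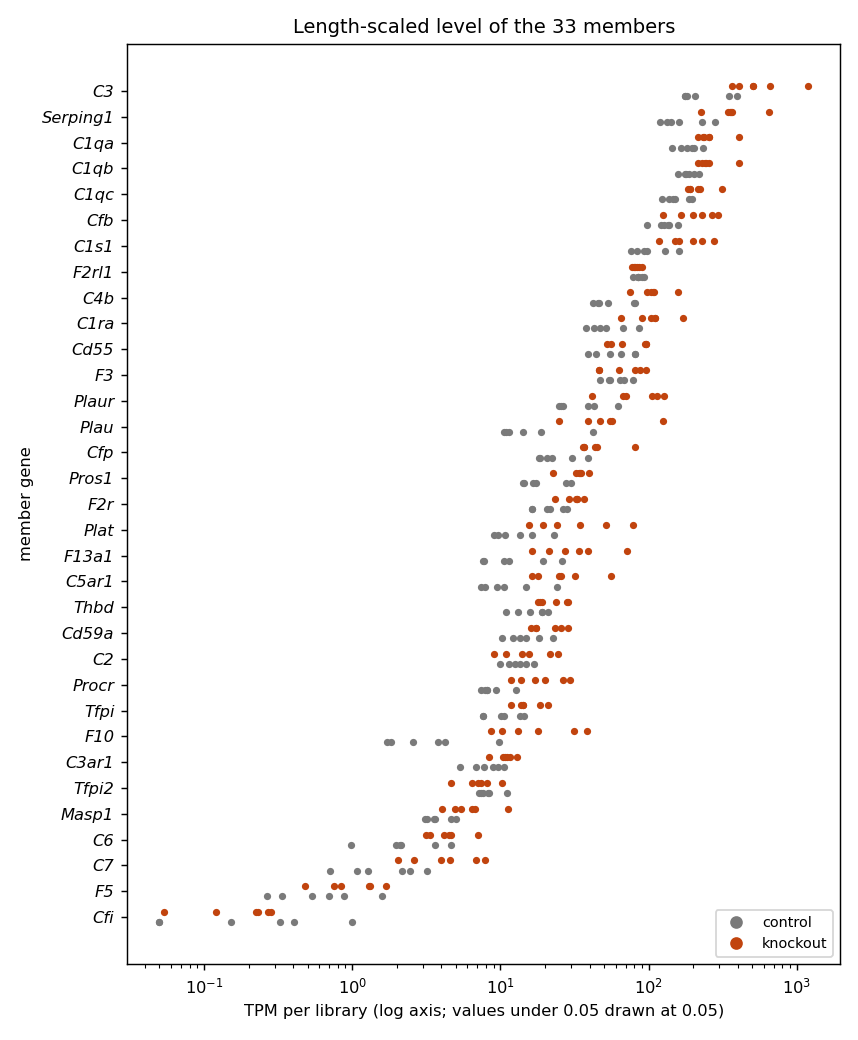
TPM of each of the 33 members (y axis, ordered by mean level) in every library on a log x axis, control in grey and knockout in red. C3 lies at the top with a mean of 426 TPM and Cfi at the bottom with 0.258 TPM.

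Set side by side, most members of both classes stood above 0, where 6485 of all 14393 tested genes did. All 18 tested complement members were above 0, with a median of 0.72 and a range of 0.18 to 1.32 on the log2 scale. Of the 14 clotting and fibrinolysis members 12 were above 0, with a median of 0.58 and a range of -0.11 to 2.30. At an adjusted p under 0.1, 11 of the 18 complement and 7 of the 14 clotting and fibrinolysis members were higher, against 6.59% of all tested genes. All of these calls were lost when knockout replicate 1 or control replicate 1, 2, 3 or 5 was left out. By role, the median was 1.41 for plasminogen activation, 1.05 for the pore components C6 and C7, 0.89 for clotting factors, 0.84 for C2, C3, C4b, Cfb and Cfp, 0.82 for the complement receptors, 0.57 for the C1 complex with Masp1, 0.47 for anticoagulants, 0.44 for complement regulators and 0.18 for the protease receptors. The classes were not tested against each other.

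Libraries high in complement members were also high in clotting members. As the mean deviation from the 12-library mean of log2 CPM, the complement members were at -0.66 to 0.09 in the control and at -0.000466 to 0.93 in the knockout, and the clotting and fibrinolysis members at -0.72 to 0.15 and -0.08 to 0.91. Knockout replicate 2 was the highest library for 20 of the 32 tested members and control replicate 3 the lowest for 14. Knockout replicate 4 was below control replicate 4 for 23 of the 32. Without these 2 libraries 15 members did not overlap between the groups, 9 of them complement and 6 clotting or fibrinolysis genes, against 6.32% of all tested genes higher and 4.07% lower, compared with 1 member when all libraries were used. Taking out a low knockout and a high control library lowers the overlap by construction, so the 15 describe the remaining mice only.

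**Figure D4:**
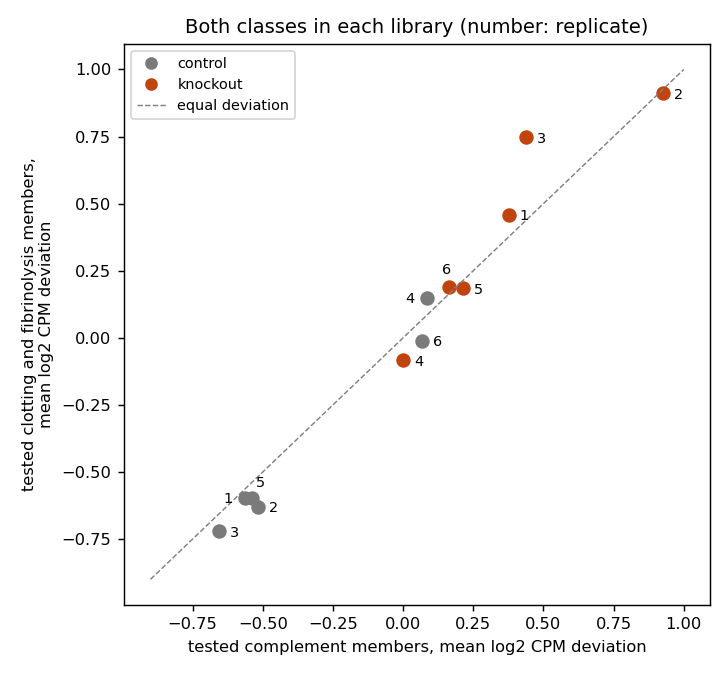
Mean log2 CPM deviation from the 12-library mean for the 18 tested complement members (x axis) and the 14 clotting and fibrinolysis members (y axis), with 1 point per library and its replicate number. Controls 4 and 6 and knockout 4 lie near 0 on both axes, and knockout 2 is highest on both.

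**Figure D5:**
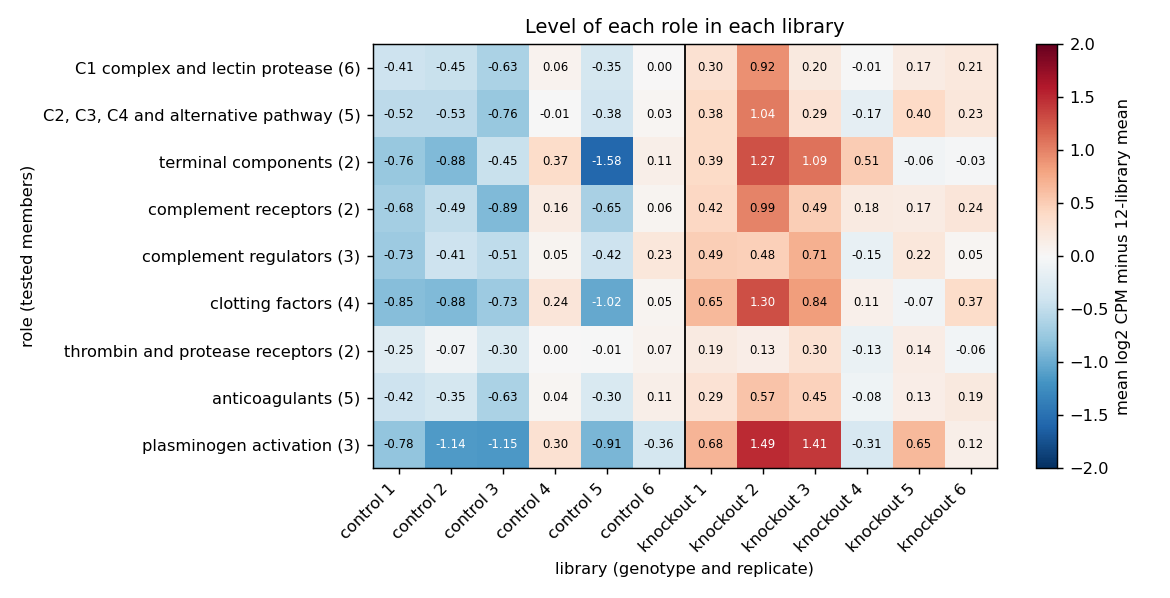
Mean log2 CPM deviation (colour and number) of each role (rows, with the number of tested members) in each library (columns). Terminal components run from -1.58 in control 5 to 1.27 in knockout 2, plasminogen activation from -1.15 in control 3 to 1.49 in knockout 2, and the protease receptors from -0.30 to 0.30.

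Other genes of these systems were read from lists of 83, of which 82 were in the table and 49 were tested. Of 21 tested complement genes 4 were higher and 1 lower at an adjusted p under 0.1, against 6.59% and 3.02% of all tested genes. Higher were Itgam (1.37 ± 0.32 on the log2 scale, SE) and Itgb2 (0.74 ± 0.24), the subunits of complement receptor CR3, Csmd1 (1.081 ± 0.311) and Cd93 (0.55 ± 0.16). Itgam was at 102 ± 49.3 against 39.7 ± 16.5 CPM (SD, n = 6). The lower one, named after its value was seen, was Cpn2 (-0.98 ± 0.32), a subunit of the carboxypeptidase that trims C3a and C5a. The most abundant were Cr1l, the rodent C3 regulator (0.03 ± 0.07), and Clu, clusterin (0.27 ± 0.28). C5, listed as Hc, and the genes of C8 and C9 had too few reads to test.

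Among 15 tested coagulation genes 2 were higher and 0 lower at the 0.1 level, against 6.59% and 3.02% of all tested genes. Fgb, the beta chain of fibrinogen, was at 0.617 through 1.65 to 6.74 CPM in the knockout and at 0 through 0.138 to 0.445 CPM in the control (adjusted p = 0.0512). It had 10 to 118 reads per knockout library and 0 to 8 per control library. Fgb therefore passed the count filter only through the knockout libraries. Its lack of overlap was fixed by that filter, and its place among the 2 is not separate evidence. The fibrinogen genes Fga and Fgg did not reach the count filter. Vwf, the platelet-binding protein of endothelium, was at 58.8 through 68.1 to 127 CPM against 37.2 through 41.5 to 57.2 CPM (0.80 ± 0.19, adjusted p = 0.0541). Its groups did not overlap, as in 0.882% of all tested genes. F2rl2 (1.07 ± 0.37, adjusted p = 0.107) and Serpind1 (1.24 ± 0.54, adjusted p = 0.190) came next by p. The most abundant were Gas6 (-0.15 ± 0.16) and Lman1 (0.03 ± 0.09).

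Of 13 tested fibrinolysis genes 7 were higher and 0 lower at the 0.1 level, against 6.59% and 3.02% of all tested genes. Serpine2 (1.61 ± 0.36 on the log2 scale, SE) and Serpinb2 (2.60 ± 0.71) inhibit the activators, Thbs1 (1.56 ± 0.36) is a matrix protein that binds fibrin and plasminogen, and Lrp1 (0.85 ± 0.23) takes up protease complexes. The most abundant were Anxa2 (0.17 ± 0.12), a plasminogen co-receptor, and Eno1 (0.33 ± 0.10, adjusted p = 0.0814). Plasminogen itself, Plg, had too few reads to test.

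Markers of several cell types stood higher or lower with the members, and their part in the differences was not tested. For comparison, 6485 of all 14393 tested genes were above 0. Fibroblast markers were above 0 in 10 of 10, with a summed level of 4459 to 10492 CPM in the knockout and 2732 to 5410 CPM in the control. Endothelial markers were above 0 in 10 of 10 (420.4 to 827 against 299 to 476 CPM) and macrophage and monocyte markers in 9 of 10 (884 to 1640 against 633 to 1192 CPM). Neutrophil markers were above 0 in 9 of 9 tested (268 to 1303 against 139 to 604 CPM). Knockout replicate 2 had the highest fibroblast, endothelial and macrophage sums, and control replicate 4 the highest endothelial, macrophage and neutrophil sums of the controls. Epithelial markers were above 0 in 1 of 10 (10480 to 12537 against 11110 to 15770 CPM), and smooth muscle markers in 0 of 8 (1848 to 2994 against 1898 to 4372 CPM). Red blood cell markers were above 0 in 5 of 5 tested (116 to 1002 against 170.4 to 574 CPM) and mesothelial markers in 5 of 5 tested (8.09 to 48.7 against 4.19 to 30.0 CPM). T cell markers were above 0 in 0 of 6 (32.5 to 53.6 against 30.8 to 59.9 CPM), B and plasma cell markers in 2 of 6 (1039 to 1340.3 against 813 to 1644 CPM) and adipocyte markers in 2 of 6 (76.8 to 218 against 60.4 to 153 CPM). No listed marker was at 0 in all libraries.

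Liver and platelet transcripts were low. The 6 liver markers summed to 1.203 to 2.51 CPM in the knockout and to 1.41 to 3.04 CPM in the control. Of the 6, 1 could be tested, at -0.56 on the log2 scale (edgeR adjusted p = 0.558). The 7 platelet and megakaryocyte markers summed to 8.04 to 27.0 against 4.19 to 10.3 CPM, with both tested markers above 0. Pancreas markers, from tissue other than colon, ranged from 34.7 to 1396 CPM in the knockout and from 73.7 to 20209 CPM in the control, where control replicate 6 held the highest sum.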

How the data were processed

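The authors deposited whole-number read counts and TPM per gene and library, per the file headers, a mean TPM per group, a log2 fold change, and a p-value and FDR whose test is not named. The submitters' processing notes list GRCm38, mm10 and mm39 without roles; the sources used here name no aligner, counter or strand setting, so genes that overlap or neighbour closely (C2 and Cfb) and near-identical copies are uncertain. TPM served for levels between genes and in alternative fits. The table held 0 columns outside the series.

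The deposited counts went into edgeR 4.0.16 (R 4.3.3): filterByExpr (minimum count 10, minimum total 15), TMM, quasi-likelihood F test over all 12 libraries with no covariate, Benjamini-Hochberg adjustment over 14393 genes, threshold 0.05. SEs were derived from the fold change and F, and intervals are 1.96 SE on either side. For the exact permutation tests, log2 CPM was computed at prior count 2. The procedure was tested on simulated data.

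The members, roles and lists were chosen with earlier results of these data known. All members are named. The lowest, median and highest CPM per group are given for members at an adjusted p under 0.1. They are also given, per role, for the smallest p and highest TPM. Of other pathway genes, the 4 smallest p and 2 highest mean CPM per list are named. A gene of the fibrinolysis list is not reported here. Alternatives were other scalings, filters and tests (DESeq2 1.42.0, limma 3.58.1), log2(TPM + 1) and log2(TPM + 0.1), a replicate block, a minimum absolute log2 change of 1, and libraries left out. No libraries agreed within counting noise (lowest chi-square per gene 19.4 over 66 combinations). The labels number the libraries as mice of each genotype; p-values measure the spread between these samples.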

Additional observations from a re-analysis of the deposited data

Results flagged for a closer look

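In groups of 6 mice, 10 of the 64 member groups held 1 library farther from the rest than Dixon's limit for 6 values (95%) allows. For independent groups of normally distributed values, chance gives about 1 in 20. The 64 groups share the same 12 libraries and are not independent, so the 10 are a description and not an excess over that rate. The flagged libraries were knockout replicate 2 and control replicate 4, each time as the highest library of its group.

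Knockout replicate 2 stood apart for 7 genes. It was at 215 CPM for C1qa, where the next knockout was at 145 CPM, at 226 CPM for C1qb (next 147), at 192 CPM for C1qc (next 135) and at 22.7 CPM for Masp1 (next 13.8). It was also at 3039 CPM for C3 (next 1568), at 67.9 CPM for Cfp (next 42.1) and at 150.5 CPM for Plau (next 76.0).

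Control replicate 4 stood apart for 3 genes, all of clotting or fibrinolysis: F10 at 9.90 CPM (next 4.12), Procr at 10.8 CPM (next 7.76) and Plau at 52.2 CPM (next 24.8).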

How the results depend on the processing

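The direction of every tested member was kept under all alternatives run, except that Tfpi2, at -0.04, became 0.02 without control replicate 6 and 0.031 without knockout replicate 5 (-0.11 to 0.031 with 1 library left out). The 0 members called higher became 21 with DESeq2, 17 with the likelihood ratio test, 22 with voom quality weights, 5 with library size only and 8 with each TPM fit. It became 18 at an adjusted p under 0.1, 20 without knockout replicate 4 and control replicate 4, and 0 to 16 with 1 library left out (16, 14 and 7 without control replicate 4, knockout replicate 4 and control replicate 6, and 0 otherwise). The 18 members at an adjusted p under 0.1 became 0 to 24 with 1 library left out. That count was 0 without knockout replicate 1 or control replicate 1, 2, 3 or 5, 4 without knockout replicate 2 and 5 without knockout replicate 3, while the count at an unadjusted p under 0.05 was 21 to 27 with any 1 library left out. The 1 member without overlap became 0 with library size only, 15 without both replicates 4 and 1 to 8 with 1 library left out (8 without knockout replicate 4, 7 without control replicate 4, 2 without control replicate 6 or knockout replicate 5). With the replicate block the 18 became 0 and the 25 at an unadjusted p under 0.05 became 24. Same-numbered mice correlated at -0.50 to 0.08, and none correlated best with its own number. The labels state no pairing, and these correlations cannot show whether same-numbered mice shared a cage or preparation. The complement median stayed within 0.58 to 0.89 and the clotting and fibrinolysis median within 0.50 to 0.85. By reads per library, depth limits Cfi, F5, Tfpi2, C7 and C6 most.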
